A study of Mus musculus with 6 samples.

Results

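The genes described here are 37 mouse genes of the tricarboxylic acid (TCA) cycle, the pyruvate dehydrogenase complex, mitochondrial fatty acid oxidation and their regulators, out of 56748 genes in the count tables. They were taken by symbol from a list drawn up by pathway, and each of the 37 symbols matched 1 gene identifier. RNA had been sequenced from whole tibiae of female mice aged 12 weeks, in 3 libraries labelled Col1a1+/-, that is, heterozygous at the gene for the alpha-1 chain of type I collagen, and 3 labelled wild type. No strain or treatment is named for either group. Bone marrow had been flushed out before freezing, and what muscle, tendon or fat stayed on the bone is not stated. Whether the libraries stem from different animals is not stated, and the p-values then speak only of the spread among libraries, which may be technical.

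Cells draw much of their energy from these genes. Fatty acids enter through the membrane protein CD36, are carried by binding proteins, cross the inner mitochondrial membrane as carnitine esters and are shortened turn by turn by the enzymes of beta-oxidation. Pyruvate from glycolysis is converted by pyruvate dehydrogenase, and both routes yield acetyl-CoA, which the TCA cycle oxidises to feed the respiratory chain. Oxidative skeletal muscle, heart and brown fat are known for high levels of these enzymes, and osteoblasts and osteoclasts use both routes as well.

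The libraries held 26830644 to 32379684 reads counted on genes, with each mate of a pair counted as a read. Col1a1 itself took 52820 to 61080 counts-per-million (CPM) in the libraries labelled Col1a1+/- and 36770 to 61280 CPM in those labelled wild type, so its level did not check the labels. Its ratio to the partner chain gene Col1a2 was 0.775 to 0.836 in Col1a1+/- and 1.25 to 1.32 in wild type. Markers of osteoblasts (12 of 12 tested), osteocytes (12 of 13) and osteoclasts (10 of 10) passed the filter on low counts. The 24 skeletal muscle markers, among them the muscle actin gene Acta1 and the creatine kinase gene Ckm, summed to 24530 (replicate 1), 45260 (replicate 2) and 21920 CPM (replicate 3) in the Col1a1+/- libraries. In wild type they summed to 65000, 77760 and 99050 CPM, in the same order of replicates, which holds for every such trio of values here. Wild-type replicate 1 stood apart in neutrophil transcripts, with 5346 CPM over 10 markers against 944.6 to 1631 CPM in the other 5 libraries.

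Promoter sequence is given first, because many of the members took a like order across the 6 libraries. RefSeq entries on mouse build GRCm38.p6 covered 35 of the 37 genes, and Cpt1b and Idh3a had none. The 250 bases before each start, 43 windows for the 35 genes, were searched on both strands for 5 short motifs, and shares are per gene. The core recognised by nuclear respiratory factor 1 (NRF1), a regulator of mitochondrial genes, is CGCATGCG, and it stood before Acadm, Etfdh and Ogdh, 3 of 35 members (8.57%), against 1.75% of 27025 genes. The cyclic AMP response element TGACGTCA stood before Ogdh and Mdh2 (5.71%, against 1.77%). The ETS factor core CCGGAAG stood before Slc25a20, Cpt2 and Idh3g (8.57%, against 7.83%), and the TATA box TATAAA before Esrrg alone (2.86%, against 14.3%). The oestrogen-related receptor element TNAAGGTCA stood before 0 of the 35 members, against 1.3% of all genes. A match is a stretch of letters and not evidence of binding, and the absence of one says only that the letters are not in this window.

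The stretches below show the NRF1 core before Acadm and the cyclic AMP element before Ogdh in capitals. They lie at chr3:153944765-153944832 (minus strand) and chr11:6291516-6291583 (plus strand) on GRCm38.p6 and overlap no annotated exon of that build.
Acadm: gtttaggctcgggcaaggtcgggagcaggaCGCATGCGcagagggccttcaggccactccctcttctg
Ogdh: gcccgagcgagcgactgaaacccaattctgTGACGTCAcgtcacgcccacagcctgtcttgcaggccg
The next stretch ends 2 bases before the RefSeq start of Ppargc1a, the member with the smallest p between genotypes, at chr5:51567727-51567826 (minus strand), and held none of the 5 motifs.
Ppargc1a: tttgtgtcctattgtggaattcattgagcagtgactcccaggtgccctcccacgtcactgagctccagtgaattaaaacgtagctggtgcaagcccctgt
The last is the whole gap between the divergent genes Hadha and Hadhb, whose products form the mitochondrial trifunctional protein. It spans 85 bases at chr5:30155163-30155247 and is written on the strand of Hadhb; in the deposited tables, on build GRCm39, the exons of both genes are also 85 bases apart.
Hadha to Hadhb gap: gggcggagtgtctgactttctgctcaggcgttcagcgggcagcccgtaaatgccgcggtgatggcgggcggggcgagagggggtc

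With TMM scaling (trimmed mean of M values), 11 of the 37 genes fell in Col1a1+/- and 0 rose. With libraries scaled on the skeletal muscle markers instead, the direction turned for 33 of the 37. On that scale the median log2 fold change was 0.73 for the 37 genes and 1.61 for all genes tested. The 11 were Cpt1b of the carnitine shuttle, Pdha1 and Dlat of pyruvate dehydrogenase, Cs, Idh3a, Dld, Sucla2 and Suclg1 of the TCA cycle, and the regulators and fuel-switch genes Ucp3, Ppargc1a and Esrra. Calls were made by edgeR's quasi-likelihood test at a Benjamini-Hochberg adjusted p under 0.05 over 18514 genes tested, all 37 members among them. Of all genes tested 2.91% were called lower and 1.43% higher, against 29.7% and 0 of the members. All 37 log2 fold changes (Col1a1+/- over wild type) were below 0, with a median of -0.88 and a range from -1.80 (Fabp3) to -0.01 (Cpt1a), whereas the median of all genes tested was -0.01. At an unadjusted p under 0.05, 34 of the 37 were lower (91.9%), against 13.2% of all genes. In 25 members (67.6%) all 3 Col1a1+/- libraries lay below all 3 wild-type libraries, against 14.5% of all genes. Summed over the 37 genes the level was 3504 ± 615 CPM in Col1a1+/-, against 6459 ± 1554 CPM for wild type (SD, n = 3 each). In bulk tissue, fewer cells of a type and less RNA per cell cannot be told apart.

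The calls depended on which libraries were compared. Without Col1a1+/- replicate 1, Col1a1+/- replicate 3, wild-type replicate 2 or wild-type replicate 3, edgeR called 0 of the 37 genes, with 31, 29, 30 and 27 of them at an unadjusted p under 0.05. Of all genes tested (19063 to 19225), it called 0, 12, 7 and 0 lower in the same order. At an unadjusted p under 0.05, 1785, 1731, 2132 and 1874 of all genes were lower. The adjusted p of the 11 genes then lay between 0.0634 and 0.173, and their log2 fold changes between -1.71 and -0.55. In those 4 comparisons limma-voom called 0 members, and DESeq2 called 20, 19, 21 and 17. Of all genes limma-voom called 0, 7, 0 and 0 lower there, and DESeq2 807, 770, 1000 and 724. Without wild-type replicate 1 edgeR called 30 members lower, the 11 genes among them, and without Col1a1+/- replicate 2 it called 15. Among all genes it then called 1172 of 19068 and 762 of 19222 lower. With all 6 libraries DESeq2 called 30 members and limma-voom 13, against 1372 and 664 of all genes called lower. The plot of calls with each library left out shows these numbers side by side.

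**Figure D1:**
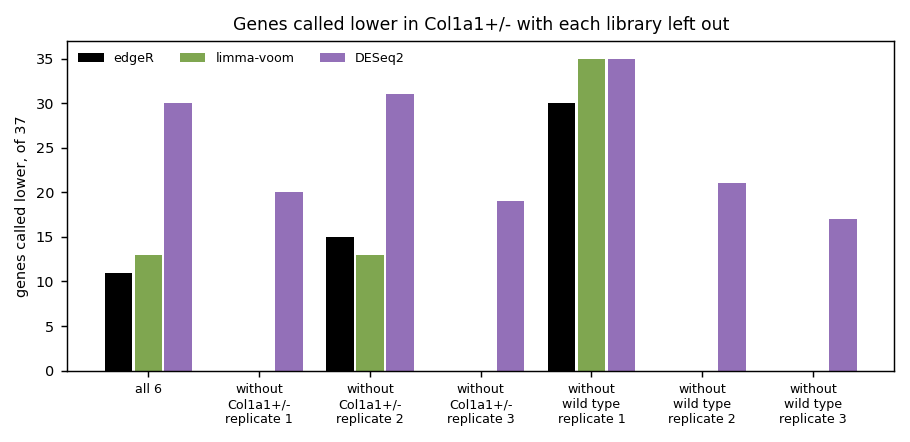
Number of the 37 genes called lower in Col1a1+/- with each tool's own scaling (y axis, linear from 0) with all 6 libraries and with each library left out (x axis), for edgeR (black), limma-voom (green) and DESeq2 (purple). By edgeR and limma-voom 0 genes were called in 4 of the 6 comparisons with a library left out, and DESeq2 called 17 to 35 in all 6.

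Skeletal muscle RNA moved with the members, and the members' log2 fold changes were nearer to 0 than those of the muscle markers. All 24 muscle markers had a log2 fold change below 0, with a median of -1.42 (-2.41 to -1.12) and 11 called lower, and 30 of the 37 members lay above that range. For each 100 CPM of muscle markers, the members together had 13.4, 9.28 and 13.8 CPM in the Col1a1+/- libraries. The wild-type libraries had 7.22, 9.08 and 7.70 CPM, so that every Col1a1+/- library lay above every wild-type library, the nearest at 9.28 and 9.08 CPM. By role, the uptake and binding genes overlapped (0.337 to 0.617 in Col1a1+/-, against 0.282 to 0.602 CPM). So did the regulators and fuel-switch genes (0.893 to 1.171 against 0.56 to 1.085 CPM), and the other role groups did not. The divisor itself was lower in every Col1a1+/- library, and no such share was computed for other genes. With libraries scaled on the muscle markers, the median of all genes moved to 1.61 and the members' median was 0.73. On that scale 7 members were called higher and 0 lower, against 15049 and 10 of the 18514 genes tested. With the muscle score as a covariate 0 of the 37 genes were called by edgeR, and 0 had an unadjusted p under 0.05 (1347 of all genes did), with a median of -0.03. The muscle score, a mean log2 CPM, was 8.79 to 10.0 in Col1a1+/- and 10.5 to 11.2 in wild type without overlap, so genotype and muscle RNA cannot be told apart by such a fit. Within a genotype too the members' order was often that of the muscle markers. Of the 37 members 33 were highest among Col1a1+/- in replicate 2 (33.7% of all genes were), which had the most muscle RNA of its genotype, and 34 were lowest among wild type in replicate 1 (45% of all genes), which had the least. In 17 members the order of all 6 libraries was that of the muscle score, and the share of all genes with that order was not computed.

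**Figure D2:**
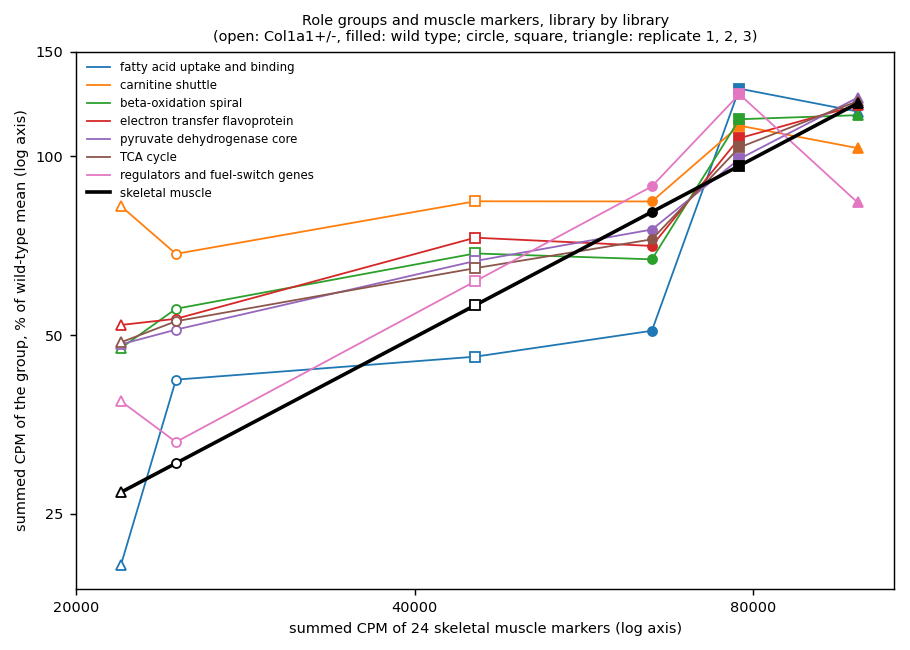
Summed CPM of each role group as a percentage of its wild-type mean (y axis, log scale) against the summed CPM of 24 skeletal muscle markers (x axis, log scale), 1 point per library (open Col1a1+/-, filled wild type), with the muscle markers themselves in black. Lines join libraries in order of muscle RNA and stand for no fit. On this TMM scale most groups run less steeply than the black line. The muscle markers and all role groups except the regulators and fuel-switch genes have their 2 highest points in wild-type replicates 2 and 3.

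**Figure D3:**
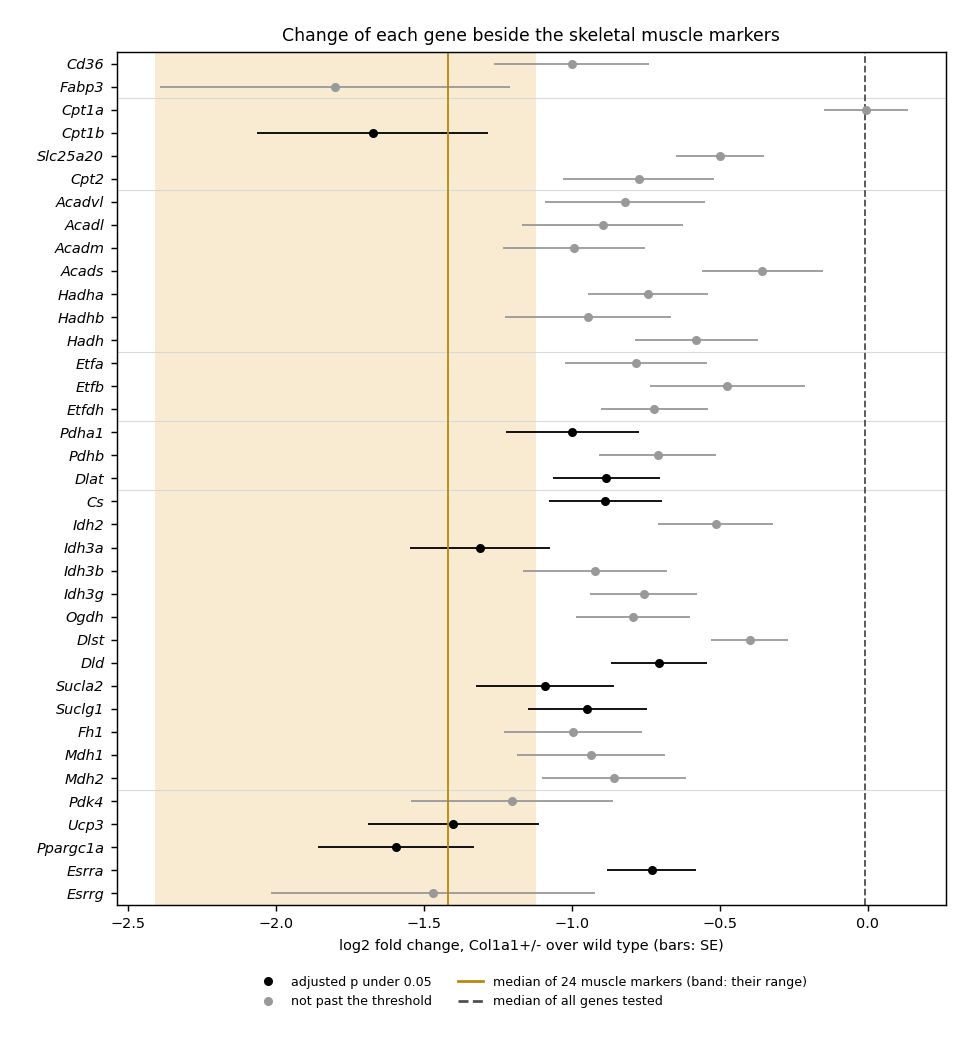
Log2 fold change of each of the 37 genes, Col1a1+/- over wild type, after TMM scaling (x axis; bars are the SE), with the 11 called genes in black. The band from -2.41 to -1.12 is the range of 24 muscle markers, and 30 genes lie to its right. On the scale of the muscle markers 33 of the 37 would lie above 0, with the median of all genes at 1.61.

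The entry genes of fatty acids, Cd36 and Fabp3, did not pass the test. Cd36, which takes up long-chain fatty acids, stood at 76.0, 73.2 and 40.8 CPM in Col1a1+/-, against 96.9, 149 and 134 CPM for wild type. The genotypes did not overlap (log2 fold change -1.0, SE 0.26, adjusted p = 0.0736 by edgeR). Fabp3, the fatty acid binding protein of heart and muscle, stood at 75.4, 92.4 and 33.0 CPM in Col1a1+/-, against 86.2, 319 and 294 CPM for wild type. Wild-type replicates 2 and 3 were at over 3 times any other library, and wild-type replicate 1 lay below Col1a1+/- replicate 2 (log2 fold change -1.80, SE 0.59, adjusted p = 0.141). Per length Fabp3 had the highest wild-type mean of all members, at 755 ± 352 TPM (transcripts-per-million; SD, n = 3), although 19.6% of its exon length is shared with genes on the opposite strand.

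Within the carnitine shuttle the muscle and liver forms of carnitine palmitoyltransferase, which make the carnitine esters at the outer membrane, had unlike values. Cpt1b, the muscle form (ENSMUSG00000078937; chromosome 15, 89300608 to 89310066, GRCm39, minus strand), stood at 0.599, 1.12 and 0.459 CPM in Col1a1+/-, against 1.86, 2.57 and 2.53 CPM for wild type. It fell (log2 fold change -1.67, SE 0.39, adjusted p = 0.0486), without overlap between genotypes. The lowest library held 13 reads of it. Of its exon length 81.4% is also annotated to the gene Gm44502 on the same strand, and reads in both were not counted, so its level is understated. Cpt1a, the liver form (ENSMUSG00000024900; chromosome 19, 3372334 to 3435733, GRCm39, plus strand), stood at 54.8, 67.5 and 81.7 CPM in Col1a1+/-, against 68.5, 71.0 and 65.3 CPM for wild type. All 3 wild-type values lay inside the Col1a1+/- range, and the log2 fold change was -0.01 (SE 0.14, adjusted p = 0.987); its sign turned with library totals and without any 1 of 4 libraries. Reads per kb of Cpt1b were 0.0248, 0.0375 and 0.0127 times those of Cpt1a in the Col1a1+/- libraries, against 0.0615, 0.082 and 0.0877 times in wild type. This ratio, which scaling does not touch, was 0.299 times as high in Col1a1+/- (exact permutation p = 0.1, the smallest that 3 against 3 libraries allow; 0.2 adjusted over the 6 ratios computed).

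The carrier and the inner membrane enzyme of the shuttle were called by DESeq2 but not by edgeR or limma-voom. Slc25a20, which exchanges carnitine esters across the inner membrane, stood at 39.9, 48.6 and 40.7 CPM in Col1a1+/-, against 49.5, 71.8 and 61.2 CPM for wild type (log2 fold change -0.50, SE 0.15, adjusted p = 0.0865). The gap between the closest libraries was narrow, from 48.6 to 49.5 CPM. Cpt2, which returns the acyl group to coenzyme A, had a log2 fold change of -0.77 (adjusted p = 0.127), and wild-type replicate 1 lay inside the Col1a1+/- range. Without wild-type replicate 1 edgeR called 3 of the 4 shuttle genes lower, all but Cpt1a. It called 0 of them without Col1a1+/- replicate 1 or 3 or wild-type replicate 2 or 3.

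Of the 7 beta-oxidation genes 0 passed the test with all 6 libraries and 6 were at an unadjusted p under 0.05, with a median log2 fold change of -0.82. DESeq2 called 5 and limma-voom 1. Acadm, the medium-chain acyl-CoA dehydrogenase whose upstream stretch is printed above, stood at 86.0, 105 and 68.6 CPM in Col1a1+/-, against 117, 190 and 209 CPM for wild type. It had the smallest p of the group and no overlap (log2 fold change -0.99, SE 0.24, adjusted p = 0.0599). Hadha, the alpha subunit of the trifunctional protein, stood at 134, 164 and 126 CPM against 165, 269 and 277 CPM (log2 fold change -0.74, SE 0.20, adjusted p = 0.0738). Hadhb, the beta subunit gene across the 85-base gap, stood at 79.4, 105 and 58.4 CPM against 104, 190 and 173 CPM (log2 fold change -0.94, SE 0.28, adjusted p = 0.0995). Wild-type replicate 1 was the wild-type library nearest to Col1a1+/- in both genes, and in Hadhb it lay below Col1a1+/- replicate 2. The ratio of Hadha to Hadhb per kb was 1.28, 1.19 and 1.63 in Col1a1+/-, against 1.2, 1.07 and 1.21 in wild type, with overlap (exact permutation p = 0.3, adjusted over 6 ratios 0.3).

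The other acyl-CoA dehydrogenases, which open each turn of the spiral on chains of different length, ranged from a log2 fold change of -0.90 for Acadl (long chain, adjusted p = 0.106) over -0.82 for Acadvl (very long chain, 0.128) to -0.36 for Acads (short chain, 0.351). Hadh, the short-chain hydroxyacyl-CoA dehydrogenase, stood at -0.58 (adjusted p = 0.146). Wild-type replicate 1 lay inside the Col1a1+/- range in Acadl, Acadvl and Hadh, and in Acads it was the lowest library of all, at 33.3 CPM. Acadvl shares 42.9% of its exon length with Dvl2 on the opposite strand, where reads were not counted. When wild-type replicate 1 was left out, edgeR called 6 of the 7 genes lower, all but Acadvl. It called 0 of the 7 without Col1a1+/- replicate 1 or 3 or wild-type replicate 2 or 3.

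Electrons from the acyl-CoA dehydrogenases pass to the electron transfer flavoprotein, made of the products of Etfa and Etfb, and on to its membrane dehydrogenase, encoded by Etfdh. Etfdh stood at 40.2, 50.1 and 40.9 CPM in Col1a1+/-, against 53.3, 75.9 and 87.1 CPM for wild type, without overlap (log2 fold change -0.72, SE 0.18, adjusted p = 0.0591). Etfa stood at 76.5, 111 and 73.6 CPM against 104, 161 and 184 CPM (log2 fold change -0.78, SE 0.24, adjusted p = 0.104). Etfb stood at 6.38, 7.64 and 5.61 CPM against 5.73, 10.6 and 11.0 CPM (log2 fold change -0.47, SE 0.26, adjusted p = 0.324). Wild-type replicate 1 lay within the Col1a1+/- range in both subunit genes. For Etfb, 58.2% of the exon length is also annotated to Gm45233 and to a microRNA on the same strand, so its level is understated. The ratio of Etfa to Etfb per kb was 7.61, 9.20 and 8.33 in Col1a1+/-, against 11.6, 9.66 and 10.6 in wild type, lower in all 3 Col1a1+/- libraries (0.79 times; exact permutation p = 0.1, 0.2 adjusted over 6 ratios).

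Pyruvate dehydrogenase links glycolysis to the cycle, and 2 of its 3 core genes fell. Dlat, the acetyltransferase core (ENSMUSG00000000168; chromosome 9, 50545933 to 50571080, GRCm39), stood at 60.4, 79.2 and 60.4 CPM in Col1a1+/-, against 96.3, 121 and 152 CPM for wild type (log2 fold change -0.88, SE 0.18, adjusted p = 0.039). Pdha1, the catalytic alpha subunit (ENSMUSG00000031299; chromosome X, 158905205 to 158921409, GRCm39), stood at 103, 147 and 99.6 CPM against 179, 217 and 303 CPM (log2 fold change -1.0, SE 0.23, adjusted p = 0.0498). Pdhb, the beta subunit, stood at 139, 168 and 126 CPM against 171, 249 and 289 CPM (log2 fold change -0.71, SE 0.20, adjusted p = 0.0755). Pdhb shares no exon length with another gene, whereas 16.1% of that of Pdha1 is shared with Map3k15 on the opposite strand. None of the 3 genes overlapped between genotypes, and in Pdhb only 168 and 171 CPM parted the nearest libraries. The ratio of Pdha1 to Pdhb per kb was 0.768, 0.902 and 0.820 in Col1a1+/-, against 1.08, 0.901 and 1.08 in wild type (0.813 times; exact permutation p = 0.2, adjusted 0.3). Without wild-type replicate 1 edgeR called all 3 core genes lower, and 0 without Col1a1+/- replicate 1 or 3 or wild-type replicate 2 or 3.

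In the TCA cycle 5 of 13 genes fell, 13 of 13 had an unadjusted p under 0.05, and 11 did not overlap between genotypes, with a median log2 fold change of -0.89. Idh3a, the catalytic subunit of the NAD-dependent isocitrate dehydrogenase (ENSMUSG00000032279; chromosome 9, 54493618 to 54511945, GRCm39), stood at 113, 156 and 104 CPM in Col1a1+/-, against 221, 311 and 394 CPM for wild type. A log2 fold change of -1.31 was the furthest from 0 of the cycle genes (SE 0.24, adjusted p = 0.0323). The other subunits of that enzyme did not pass, with Idh3b at -0.92 (adjusted p = 0.0706) and Idh3g at -0.76 (0.0523). Idh2, the NADP-dependent mitochondrial enzyme for the same substrate, stood at -0.51 (adjusted p = 0.16), and wild-type replicate 1 lay inside its Col1a1+/- range.

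Cs, citrate synthase, which opens the cycle and is often used as a gauge of mitochondrial content (ENSMUSG00000005683; chromosome 10, 128173603 to 128198348, GRCm39), stood at 182, 234 and 170 CPM in Col1a1+/-, against 274, 381 and 430 CPM for wild type. It fell by 0.89 on the log2 scale (SE 0.19, adjusted p = 0.0416). Succinyl-CoA synthetase joins a shared alpha subunit, Suclg1, to an ATP-forming beta subunit, Sucla2. Suclg1 (ENSMUSG00000052738; chromosome 6, 73225365 to 73253894, GRCm39) stood at 61.4, 79.1 and 53.9 CPM against 95.2, 126 and 154 CPM (log2 fold change -0.95, SE 0.20, adjusted p = 0.0435). Sucla2 (ENSMUSG00000022110; chromosome 14, 73762759 to 73833582, GRCm39) stood at 89.9, 121 and 73.1 CPM against 148, 210 and 245 CPM (log2 fold change -1.09, SE 0.23, adjusted p = 0.046). In both genes the 6 libraries took the order of the muscle score. The ratio of Sucla2 to Suclg1 per kb was 1.70, 1.77 and 1.57 in Col1a1+/-, against 1.81, 1.94 and 1.85 in wild type, lower in all 3 Col1a1+/- libraries by a small step (0.90 times; exact permutation p = 0.1, 0.2 adjusted).

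The 2-oxoglutarate dehydrogenase complex is built from Ogdh, Dlst and Dld, and Dld also serves pyruvate dehydrogenase. Dld (ENSMUSG00000020664; chromosome 12, 31381276 to 31401452, GRCm39) stood at 105, 125 and 95.5 CPM in Col1a1+/-, against 143, 176 and 212 CPM for wild type (log2 fold change -0.70, SE 0.16, adjusted p = 0.0478). Ogdh stood at -0.79 (adjusted p = 0.0536) and Dlst at -0.40 (0.107), the value nearest to 0 in the cycle. Dlst was also 1 of 2 members whose highest Col1a1+/- library was replicate 3, the library with the least muscle RNA; the other was Cpt1a. Fumarase (Fh1) stood at -1.0 (adjusted p = 0.0566), and the cytosolic and mitochondrial malate dehydrogenases Mdh1 and Mdh2 at -0.93 (0.072) and -0.86 (0.0808). In Mdh2 wild-type replicate 1, at 307 CPM, lay below Col1a1+/- replicate 2, at 310 CPM. Without wild-type replicate 1 edgeR called all 13 cycle genes lower, a comparison in which 1172 of all 19068 genes tested were called lower. It called 0 of the 13 without Col1a1+/- replicate 1 or 3 or wild-type replicate 2 or 3.

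**Figure D4:**
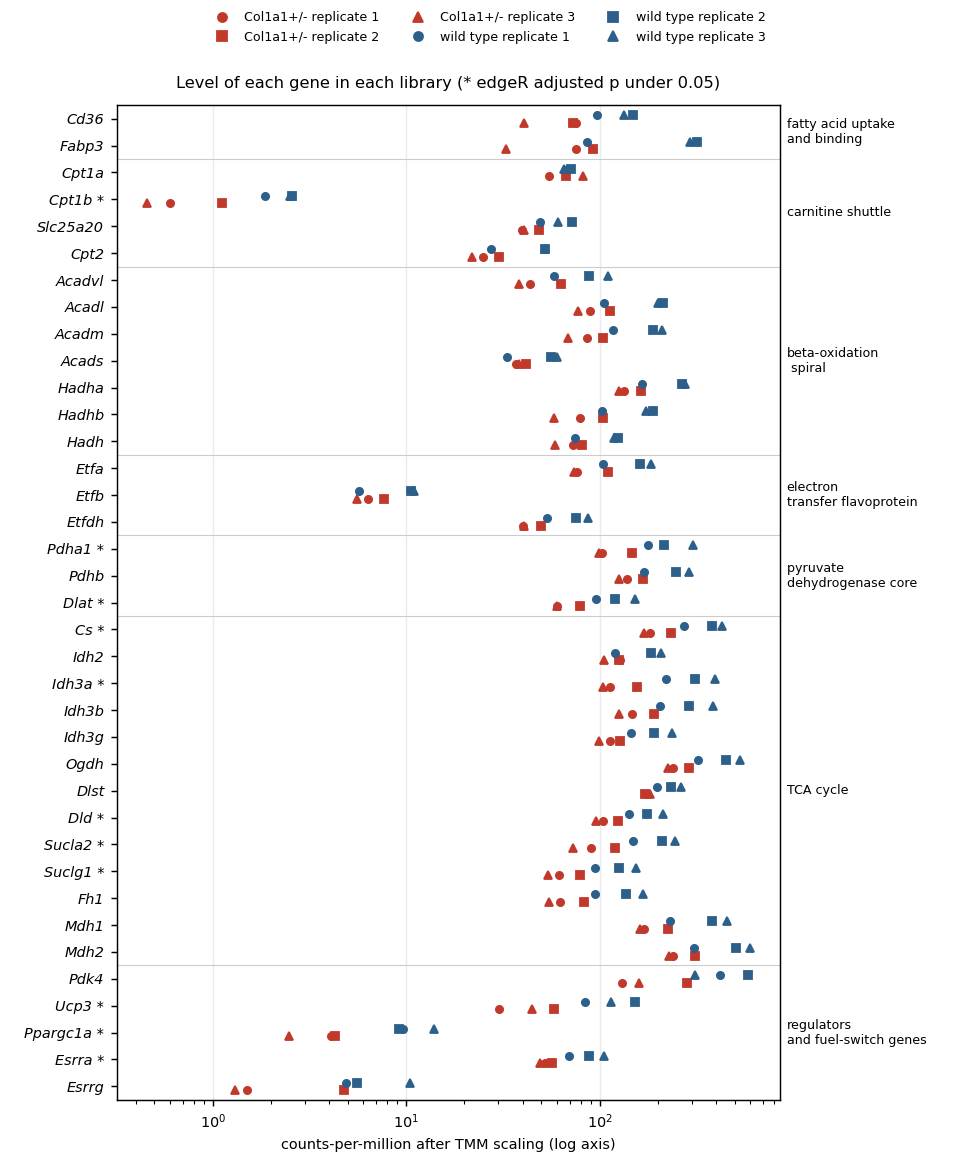
CPM of each of the 37 genes in each library after TMM scaling (x axis, log scale), by role, with red for Col1a1+/- and blue for wild type, shapes for replicates 1 to 3 and an asterisk for an edgeR adjusted p under 0.05. On this scale the blue circle, wild-type replicate 1, is the lowest blue point in 34 of the 37 genes, cycle genes included. In 12 genes it lies at or below the highest red point, and 11 of 13 cycle genes have no overlap. Scaled on muscle markers 33 of the 37 genes would lie higher in Col1a1+/-, with the median log2 fold change of all genes at 1.61.

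The regulators and fuel-switch genes had the lowest group median beside the uptake genes, at -1.40, and all 5 parted the genotypes without overlap; 3 fell. Ppargc1a, which encodes PGC-1alpha, a coactivator that drives mitochondrial gene expression (ENSMUSG00000029167; chromosome 5, 51611592 to 51725068, GRCm39), stood at 4.07, 4.29 and 2.47 CPM in Col1a1+/-, against 9.63, 9.19 and 13.98 CPM for wild type. It had the smallest p of all members (log2 fold change -1.60, SE 0.26, adjusted p = 0.0244). On the scale of the muscle markers its log2 fold change was -0.03 (adjusted p = 0.963). The other members not above 0 there were Esrrg (-0.05, adjusted p = 0.925), Cpt1b (-0.21, 0.759) and Fabp3 (-0.23, 0.641). Esrra, an oestrogen-related receptor that PGC-1alpha coactivates (ENSMUSG00000024955; chromosome 19, 6888345 to 6899208, GRCm39), stood at 52.4, 56.5 and 49.1 CPM against 69.2, 88.0 and 105 CPM (log2 fold change -0.73, SE 0.15, adjusted p = 0.0378). Esrrg, a related receptor of oxidative tissues, stood at 1.497, 4.78 and 1.31 CPM against 4.89, 5.57 and 10.5 CPM (log2 fold change -1.47, SE 0.55, adjusted p = 0.167). Col1a1+/- replicate 2 and wild-type replicate 1 were next to each other in Esrrg. The ratio of Esrrg to Esrra per kb was 0.0203, 0.0602 and 0.0189 in Col1a1+/-, against 0.0503, 0.045 and 0.0711 in wild type, with overlap (exact permutation p = 0.3, adjusted 0.3).

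Pdk4 and Ucp3 are known to rise when muscle turns from glucose to fat, Pdk4 as the kinase that shuts off pyruvate dehydrogenase and Ucp3 as a mitochondrial carrier of skeletal muscle. Ucp3 (ENSMUSG00000032942; chromosome 7, 100122197 to 100135639, GRCm39) stood at 30.1, 58.4 and 44.7 CPM in Col1a1+/-, against 84.6, 152 and 115 CPM for wild type, and fell by 1.40 on the log2 scale (SE 0.29, adjusted p = 0.0464). Pdk4 stood at 131, 285 and 159 CPM against 422, 589 and 311 CPM (log2 fold change -1.20, SE 0.34, adjusted p = 0.0906). In Pdk4 the lowest wild-type library was replicate 3, the one with the most muscle RNA, in place of replicate 1 as in 34 other members. Without Col1a1+/- replicate 2 edgeR called all 5 genes of this group lower, and 0 without Col1a1+/- replicate 1 or 3 or wild-type replicate 2 or 3.

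**Figure D5:**
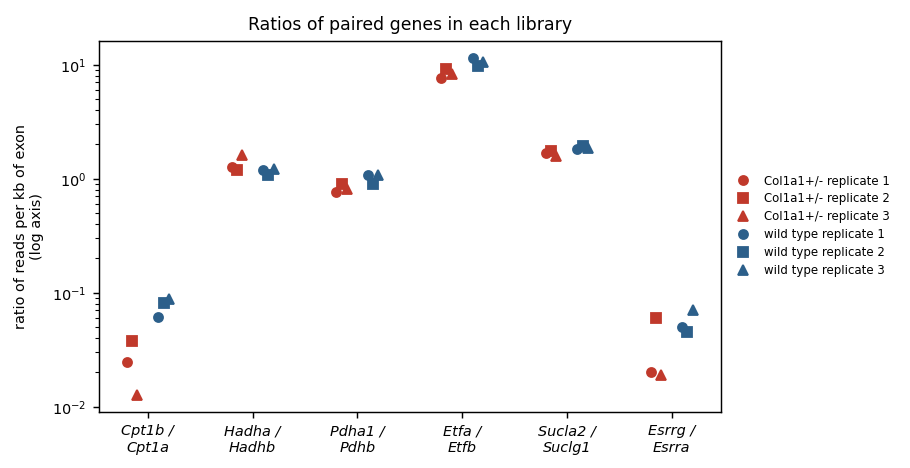
Ratio of reads per kb of exon for 6 gene pairs (y axis, log scale) in each library, red for Col1a1+/- and blue for wild type, shapes for replicates 1 to 3. Cpt1b over Cpt1a, Etfa over Etfb and Sucla2 over Suclg1 have all 3 red points below all 3 blue points, and the other pairs overlap.

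Set by length, the wild-type means spanned a wide range. Below Fabp3 came Mdh1 (365 ± 67.2 TPM), Mdh2 (362 ± 65.8 TPM) and Pdk4 (356 ± 117 TPM; SD, n = 3 each), which did not differ beyond their spread. At the other end stood Esrrg (3.08 ± 1.009 TPM) and Ppargc1a (4.63 ± 0.87 TPM), at 1.31 ± 0.932 and 1.79 ± 0.387 TPM in Col1a1+/-. Cpt1b came to 1.91 ± 0.07 TPM over its whole exon length, but reads were not counted over 81.4% of that length, so it is given no place in the order. Among the beta-oxidation enzymes Acadl was highest (236 ± 52.2 TPM).

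Further genes of the same pathways, from lists drawn up alongside the members, lay mostly below 0 on the TMM scale, in 28 of 35, 25 of 30 and 15 of 20 genes. Of the 35 other genes of fatty acid handling 4 fell and 0 rose by edgeR (1 of those above 0 at an unadjusted p under 0.05), with a median log2 fold change of -0.35. The 2 with the smallest p were Acsl1, which activates long-chain fatty acids (-1.09, SE 0.17, adjusted p = 0.0238), and Acacb, whose product malonyl-CoA restrains carnitine palmitoyltransferase (-1.51, SE 0.24, adjusted p = 0.0286). Cpt1c (0.46, adjusted p = 0.11) and Acad10 (0.40, adjusted p = 0.224) had the smallest p among those above 0. Of 30 other TCA and pyruvate genes 4 fell and 1 rose, with a median of -0.73. Of the malic enzyme genes, Me1 fell (-0.73, adjusted p = 0.0354) and Me2 was the gene that rose (0.51, adjusted p = 0.0376). Their relative Me3 stood at -1.30 and was not called (adjusted p = 0.0811). Pdk1, a pyruvate dehydrogenase kinase, fell by 0.59 on the log2 scale (adjusted p = 0.0419), while its relative Pdk3 stood at 0.49 (adjusted p = 0.0613). Of 20 other regulators 4 fell and 0 rose by edgeR (again 1 at an unadjusted p under 0.05), with a median of -0.30. Prkag3, a muscle subunit of AMP-activated kinase, stood at 19.5 ± 3.04 CPM in Col1a1+/-, against 48.2 ± 1.11 CPM for wild type (SD, n = 3 each; log2 fold change -1.31, adjusted p = 0.0147), and Perm1, a muscle gene that PGC-1 coactivators switch on, stood at -1.51 (adjusted p = 0.0336). Above 0 the smallest p belonged to Pprc1, a relative of Ppargc1a (0.34, adjusted p = 0.102), and Ucp2 (0.15, adjusted p = 0.567).

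Neighbouring pathways are given for comparison, without a test of the difference. All 24 nuclear respiratory chain genes had a log2 fold change below 0 with a median of -0.88, close to that of the members, and 0 were called by edgeR (23 at an unadjusted p under 0.05). Of 20 glycolysis genes, 18 were called lower, with a median of -1.25. The 8 slow muscle fibre markers, which mark oxidative fibres, summed to 51.3, 95.1 and 20.1 CPM in Col1a1+/-, against 373, 457 and 1379 CPM for wild type. Their median was -4.3, with 2 called lower by edgeR and all 8 at an unadjusted p under 0.05. Fat also expresses many of these genes. Of the 10 adipocyte markers 8 were tested, with a median of 0.07 and 1 called lower (Plin4). The markers summed to 1166 to 1596 CPM in Col1a1+/-, against 2037 to 2504 CPM for wild type. Most of this came from Car3, at 982 to 1429 CPM against 1867 to 2221 CPM. Only Car3 and Plin4, 2 of the 8, had all 3 Col1a1+/- libraries below all 3 wild-type libraries (14.5% of all genes did). Which cells the Car3 RNA came from was not tested. Adipoq, which defines fat cells, was at 35.1 to 50.7 CPM in Col1a1+/-, against 35.4 to 44.0 CPM for wild type, and the brown fat gene Ucp1 was at 0 in every library. Osteoblast markers had a median of 0.71 with 8 of 12 called higher, osteoclast markers 0.43 with 0 of 10 (6 at an unadjusted p under 0.05), and macrophage markers 0.27 with 0 of 8 (5 at an unadjusted p under 0.05). The part of these cell types in the members' levels was not tested.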

How the data were processed

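The members and gene lists were chosen with earlier results of these data known. Raw read counts per gene were deposited, 1 table per library, with no normalization. Reads were counted with featureCounts 2.0.3 on Ensembl release 107 exons of GRCm39, per the file headers, as single reads of a pair, without strand, leaving out reads on several genes or places. Trimmomatic 0.39, HISAT2 2.2.1 and SAMtools 1.20 came before, per the submitters' processing notes. Symbols came from a GRCm38 annotation by identifier (91.8% of 56748 matched).

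Here edgeR 4.0.16 (R 4.3.3) kept 18514 genes (filterByExpr), scaled by TMM (factors 0.892 to 1.10) and tested genotype with robust quasi-likelihood fits and Benjamini-Hochberg adjusted p. SE is the absolute log2 fold change over the square root of F. limma 3.58.1 and DESeq2 1.42.0 served as alternatives. TPM was computed from counts and exon length. Ratios were compared by exact two-sided permutation tests (SciPy 1.17.1). All 37 members are named, with values in every library for those called, the 2 smallest p per role, ratio genes and regulators. Of the other pathway lists the 2 smallest p per direction are named. Me3 and the genes of the closing observations were chosen after their values were seen. Reads counted on genes numbered 26830644 to 32379684 per library, and the lowest member count was 13 reads. Median log2 fold changes of the remaining marker lists were erythroid (0.05), endothelial (-0.03), chondrocyte (1.22), osteocyte (0.54) and neutrophil (-1.22). Some genes of the pathway lists are not reported here.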

Additional observations from a re-analysis of the deposited data

How the results depend on the processing

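The edgeR calls depended most on scaling, on muscle RNA and on single libraries. Of all genes 538 were called lower and 265 higher. Scaled on muscle markers these counts were 10 and 15049, on osteocyte markers 3879 and 30, by library totals 739 and 588, by DESeq2 1372 and 681, without a filter 895 and 577, and with the muscle covariate 0 and 0 (1347 genes at an unadjusted p under 0.05). Leaving out each library gave 0 to 1172 lower and 0 to 594 higher. Members called lower numbered 11, against 0 scaled on muscle markers, 36 on osteocyte markers, 23 by library totals, 30 by DESeq2, 0 with the muscle covariate and 0 to 30 with a library left out. Those called higher were 0 in every setting except 7 on muscle markers (Cpt1a, Slc25a20, Acads, Hadh, Etfb, Idh2 and Dlst). With a library left out, a comparison added after the data were seen, DESeq2 called 17 to 35 members and limma-voom 0 to 35. Of all genes they called 724 to 1809 and 0 to 1547 lower. A block for the replicate number gave 89 genes lower, 37 higher and 2 members lower (Pdk4 and Ucp3). Same-numbered libraries did not deviate together (correlations 0.107, 0.0413 and -0.122), and not every library correlated best with its own number. With 3 libraries per genotype this cannot settle whether the numbers pair the samples. DESeq2 size factors in edgeR, limma-voom, at least 1 CPM in 3 libraries and a dispersion that was not robust gave a members' count between 11 and 13, and Dld was lost when dispersion was not robust (adjusted p = 0.0502). Without a filter on low counts 13 members were called, 8 of the 11 among them, and Pdha1 (adjusted p = 0.0715), Sucla2 (0.0872) and Ucp3 (0.166) were lost. The 6 ratios kept their direction without each library, with the replicate block and with 1 count added. The causes of these shifts were not tested.

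Scaled on muscle markers, 33 log2 fold changes turned above 0: Cd36 0.571, Cpt1a 1.64, Slc25a20 1.11, Cpt2 0.854, Acadvl 0.77, Acadl 0.724, Acadm 0.615, Acads 1.32, Hadha 0.886, Hadhb 0.624, Hadh 1.04, Etfa 0.815, Etfb 1.16, Etfdh 0.914, Pdha1 0.602, Pdhb 0.915, Dlat 0.734, Cs 0.722, Idh2 1.14, Idh3a 0.293, Idh3b 0.691, Idh3g 0.875, Ogdh 0.837, Dlst 1.27, Dld 0.91, Sucla2 0.49, Suclg1 0.654, Fh1 0.607, Mdh1 0.694, Mdh2 0.778, Pdk4 0.248, Ucp3 0.181 and Esrra 0.914. With the muscle covariate 17 turned: Fabp3 0.28, Cpt2 0.157, Acadvl 0.363, Acadl 0.0825, Acads 0.238, Hadha 0.0237, Hadhb 0.167, Hadh 0.179, Etfa 0.232, Etfb 0.437, Pdhb 0.0943, Idh2 0.112, Idh3b 0.126, Fh1 0.0193, Mdh1 0.0673, Mdh2 0.0902 and Esrrg 0.772. Cpt1a also turned by library totals (0.0756) and without Col1a1+/- replicate 1 (0.143), Col1a1+/- replicate 2 (0.000582), wild-type replicate 1 (0.0258) or wild-type replicate 2 (0.0232), with a range over libraries left out from -0.137 to 0.143. Cpt1b had the fewest reads of the members, with 13 to 73 per library, and the share of depth in this and that of the uncounted overlap with Gm44502 were not told apart.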

Other observations

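Succinate dehydrogenase, the TCA cycle enzyme shared with the respiratory chain, and 3 enzymes of the peroxisomal route of fatty acid oxidation were looked at after the values of their lists were seen. None of the 4 succinate dehydrogenase genes passed edgeR's test on the TMM scale. Their log2 fold changes were -0.79 for Sdha (adjusted p = 0.0544), -1.01 for Sdhb (0.0735), -0.74 for Sdhc (0.077) and -0.60 for Sdhd (0.131).

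Peroxisomes shorten very long chains with enzymes of their own. Ehhadh stood at -0.24 (adjusted p = 0.59), Hsd17b4 at -0.04 (0.848) and Acaa1a at 0.09 (0.744). The difference between the peroxisomal and the mitochondrial genes was not tested.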
